A study of Homo sapiens with 12 samples.

Results

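The long noncoding RNAs described here are genes of MV3 cells, a human melanoma line, whose symbols carry 1 of 5 endings or prefixes. These are LINC (long intergenic noncoding RNA), SNHG (small nucleolar RNA host gene), MIR followed by HG (microRNA host gene), AS (antisense RNA) and DT (divergent transcript). The symbol rule matched 3621 of the 28101 genes in the deposited table, and 573 of them reached a mean of at least 1 CPM (counts scaled to the library total) over the 12 libraries. They comprised 95 LINC, 22 SNHG, 19 microRNA host, 365 antisense and 72 divergent genes. They were chosen by symbol and by their mean level, so their levels are given as a description. The genes nearest to the limit were THBS2-AS1, EDRF1-AS1 and LINC01572, with means of 1.01 CPM each, and TBX2-AS1, DDX19A-DT and SATB1-AS1 just below it, with 0.997, 0.992 and 0.985 CPM. RefSeq types 571 of the 573 as long noncoding or antisense RNA. The other two, LINC02210-CRHR1 and LINC00680-GUSBP4, are read-through genes typed as protein coding and as a transcribed pseudogene.

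The 4 groups had 3 libraries each: M1 EV, M0 EV and M2 EV cells received 1e10 extracellular vesicles per well, and Ctrl cells received PBS. The vesicles were spun down from medium of macrophages grown from the monocytic leukaemia line THP-1. These macrophages are labelled M1, M0 or M2, and the labels give 48 h for polarization without naming its agents. All cells had RPMI medium with 1% serum depleted of vesicles for 3 h, and RNA was taken after 24 h of exposure. The labels number the replicates without saying whether they were separate cultures or vesicle preparations, so the spread behind each p-value is that of these libraries and may be technical. Replicates 2 and 3 of M0 EV did not differ detectably beyond the sampling noise of their counts (chi-square per degree of freedom 1.02, p = 0.051) and were taken as possibly 1 sample, so M0 EV values are given by library with no SD. Fits used all 12 libraries, so their SE and p for M0 EV take this pair as separate samples, and the values with the pair summed are given beside them. The libraries held 9699560 to 14384676 counts in genes, and the long noncoding RNAs together made up 6686 to 6966 CPM in M1 EV, 6778 to 6809 CPM in M0 EV, 6639 to 6929 CPM in M2 EV and 6693 to 6889 CPM in Ctrl.

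Long noncoding RNAs act through several routes. A microRNA host is cut by Drosha to release hairpins that become microRNAs, which pair through bases 2 to 8 (the seed) with messenger RNAs and lower their output. An SNHG carries small nucleolar RNAs in its introns and its spliced RNA is often exported and degraded. Antisense and divergent RNAs start within or beside a protein-coding gene and are often transcribed along with it, while LINC genes were named as lying between coding genes.

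The sequences of the microRNA hosts that changed come first, because the largest rise among all 573 genes was in such a host. MIR3142HG, on the plus strand of chromosome 5 (160468251 to 160487426, GRCh38.p14), spans the hairpins of miR-146a and miR-3142. The mature forms below are those of the 4 hosts called in M1 EV against Ctrl, from RefSeq (GRCh38.p14), with the seed in capitals.
hsa-miR-146a-5p (in MIR3142HG, higher): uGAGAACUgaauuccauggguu
hsa-miR-146a-3p (in MIR3142HG, higher): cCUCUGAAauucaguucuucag
hsa-miR-3142 (in MIR3142HG, higher): aAGGCCUUucugaaccuucaga
hsa-miR-195-5p (in MIR497HG, higher): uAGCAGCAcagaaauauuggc
hsa-miR-195-3p (in MIR497HG, higher): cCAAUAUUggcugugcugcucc
hsa-miR-497-5p (in MIR497HG, higher): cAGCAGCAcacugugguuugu
hsa-miR-497-3p (in MIR497HG, higher): cAAACCACacugugguguuaga
hsa-miR-4435 (in MIR4435-2HG, lower): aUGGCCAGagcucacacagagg
hsa-miR-1915-3p (in MIR1915HG, lower): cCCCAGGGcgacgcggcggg
hsa-miR-1915-5p (in MIR1915HG, lower): aCCUUGCCuugcugcccgggcc
The miR-195-5p and miR-497-5p forms share the seed AGCAGCA, and the other seeds in this set differ from each other. In all, 23 of the 573 genes span 40 microRNA genes with 71 mature forms on their own strand. The mature microRNAs themselves are not measured by these poly(A) libraries.

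The start region of MIR3142HG is shown because it holds a stretch known as a binding motif of NF-kB, the main transcription factor of inflammatory signalling. It is the RefSeq window of 250 bases before to 50 bases after the annotated start, chr5:160468001-160468300 on the plus strand, with the motif in capitals 120 bases before the start.
MIR3142HG: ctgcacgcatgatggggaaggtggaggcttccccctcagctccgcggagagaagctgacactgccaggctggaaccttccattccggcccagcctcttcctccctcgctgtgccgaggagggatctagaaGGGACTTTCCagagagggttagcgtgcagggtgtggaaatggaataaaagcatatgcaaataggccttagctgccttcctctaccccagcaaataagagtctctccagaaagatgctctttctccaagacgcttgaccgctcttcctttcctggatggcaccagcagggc
In all, 3 forms of the NF-kB motif and the AP-1 motif TGAGTCA were searched on both strands. The form shown stands in 53 of 27305 RefSeq windows of the same length (0.194%). Among the 445 long noncoding RNAs with a window it stands in 1, MIR3142HG, and the other NF-kB forms, in 44 windows each (0.161%), stand in none of the 445. TGAGTCA stands in 26 of the 445 (5.84%) and in 4.92% of all windows. A match of letters is no evidence of binding, which was not measured here.

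MIR3142HG, the host of miR-146a, rose in M1 EV cells. It had 6.20, 5.86 and 6.97 CPM in M1 EV, 1.14, 1.19 and 1.41 CPM in M0 EV, 1.56, 1.74 and 1.07 CPM in M2 EV and 1.30, 0.617 and 1.33 CPM in Ctrl. All 3 M1 EV libraries lay above the other 9. These values rest on 195 counts in M1 EV, 42 in M0 EV, 55 in M2 EV and 34 in Ctrl. The means were 6.34 ± 0.57 CPM in M1 EV and 1.08 ± 0.40 CPM in Ctrl (SD, n = 3 each), a log2 fold change of 2.52 ± 0.21 (SE; edgeR quasi-likelihood adjusted p = 1.7e-12). Against M0 EV the log2 fold change was 2.34 ± 0.20 (edgeR adjusted p = 3.5e-12; 2.33 ± 0.20 and 6.44e-12 with the pair summed) and against M2 EV it was 2.11 ± 0.19 (edgeR adjusted p = 8.08e-12). In M0 EV against Ctrl it was 0.18 (edgeR adjusted p = 1.00; 0.19 and 1.00 with the pair summed).

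**Figure D1:**
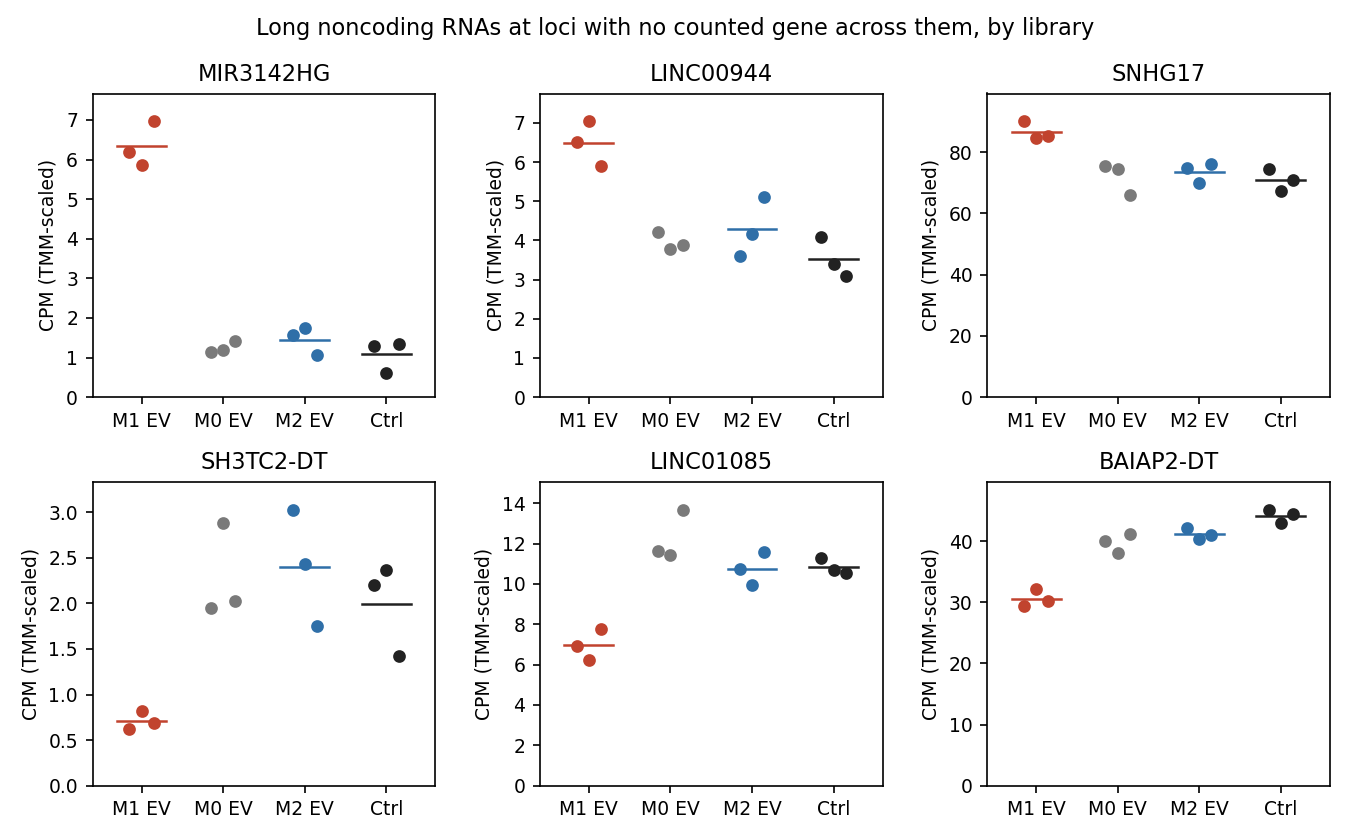
Level of 6 long noncoding RNAs at clear loci in CPM (y axes, each from 0) by group (x axes); points are libraries and lines the mean of 3 libraries, with no mean drawn for M0 EV. MIR3142HG, LINC00944 and SNHG17 lie higher in all 3 M1 EV libraries than in any other library, and SH3TC2-DT, LINC01085 and BAIAP2-DT lower.

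Reads could be assigned with certainty at few of these loci. The libraries were directional, but strand use in counting is not stated, and without strand the reads of a gene and its antisense partner cannot be told apart. A locus is called clear here where no other gene of at least 1 CPM spans it in RefSeq and none of its exons lies under a GENCODE exon of another gene on either strand. By that measure 124 of the 573 were clear, 441 overlapped another gene and 8 could not be classed. Of the 365 antisense genes 25 were clear and 339 overlapped, against 48 clear and 43 overlapping of the 95 LINC genes and 32 clear and 37 overlapping of the 72 divergent genes. VIM-AS1, antisense to the intermediate filament gene vimentin, shows what this means for levels. It had 1308 CPM, far above the median of 4.03 CPM over the 573, and 69.8% of its exonic length lies under exons of VIM, which had 5091 CPM. The reads of VIM over that stretch alone would amount to 1528 CPM at even coverage. For the 46 genes with at least 50% of their length under exons of a gene of at least 10 CPM, the ratio of their level to that expectation had a median of 0.85 (quartiles 0.425 and 1.19). Single ratios lay far from it, such as 0.00938 for TPM1-AS and 7.48 for AGAP2-AS1. Only genes with a mean of at least 1 CPM could enter the 46, so antisense genes with few reads under an abundant gene are absent. The median therefore cannot show whether strand was used in counting. The expectation is also rough, since the overlap counts all annotated exons of the other gene and the length is that of 1 transcript. For PITX1-AS1 it came to 436 CPM, above the 245 CPM of MACROH2A1 itself.

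In M1 EV against Ctrl, 27 of the 573 long noncoding RNAs were higher and 45 lower, all of the 573 having passed the filter on low counts. That is 12.6%, against 28.1% of all 13132 tested genes, of which 14.7% were higher and 13.5% lower. At clear loci 6 of 124 were higher and 14 lower. DESeq2 called 19 higher and 24 lower, each of the 43 also called by edgeR, beside 19.9% of all genes with an adjusted p. The median log2 fold change of the 573 was -0.02, against 0.00 over all tested genes. The groups did not overlap in 69 of the 72 called, and in 152 of the 573 (26.5%, against 39.7% of all tested genes). Only MIR3142HG and SH3TC2-DT were called with a change of at least 2-fold. The called changes had a median size of 0.45 on the log2 scale, against 0.25 over all called genes. These sizes were not compared at equal level, and a gene with few counts passes only with a larger change. At 1 to 3 CPM lay 227 of the 573, with a median SE of 0.27. At 30 CPM or more lay 6621 of the other tested genes, with a median SE of 0.05. There were 18 of the 573 that reached the mean of 1 CPM only with the libraries of 1 group, and none of these was called.

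Level went along with how many were called. From 1 to 3 CPM, 4.41% of 227 long noncoding RNAs were called, against 9.05% of 1050 other tested genes. From 3 to 10 CPM the shares were 13.8% of 224 and 18.9% of 1630. From 10 to 30 CPM they were 23.6% of 89 and 24.8% of 2917, and from 30 CPM up 30.3% of 33 and 37.4% of 6621. The median standard error of a log2 fold change was 0.27 in the lowest range and 0.06 in the highest for the long noncoding RNAs. Only 122 of the 573 reached a mean of 10 CPM, and differences within these errors were not detectable at this depth.

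**Figure D2:**
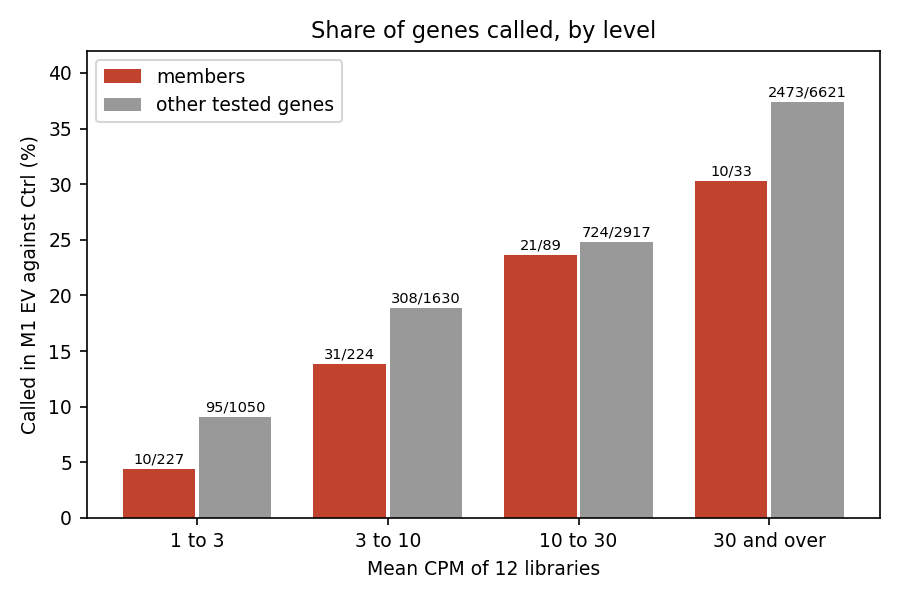
Share of genes called in M1 EV against Ctrl (y axis, percent; edgeR adjusted p below 0.05) by mean level (x axis, CPM), for the long noncoding RNAs and for the other tested genes; figures over the bars are called genes of all genes. The share rises with level in both sets, to 30.3% of the long noncoding RNAs and 37.4% of the other genes at 30 CPM or more.

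**Figure D3:**
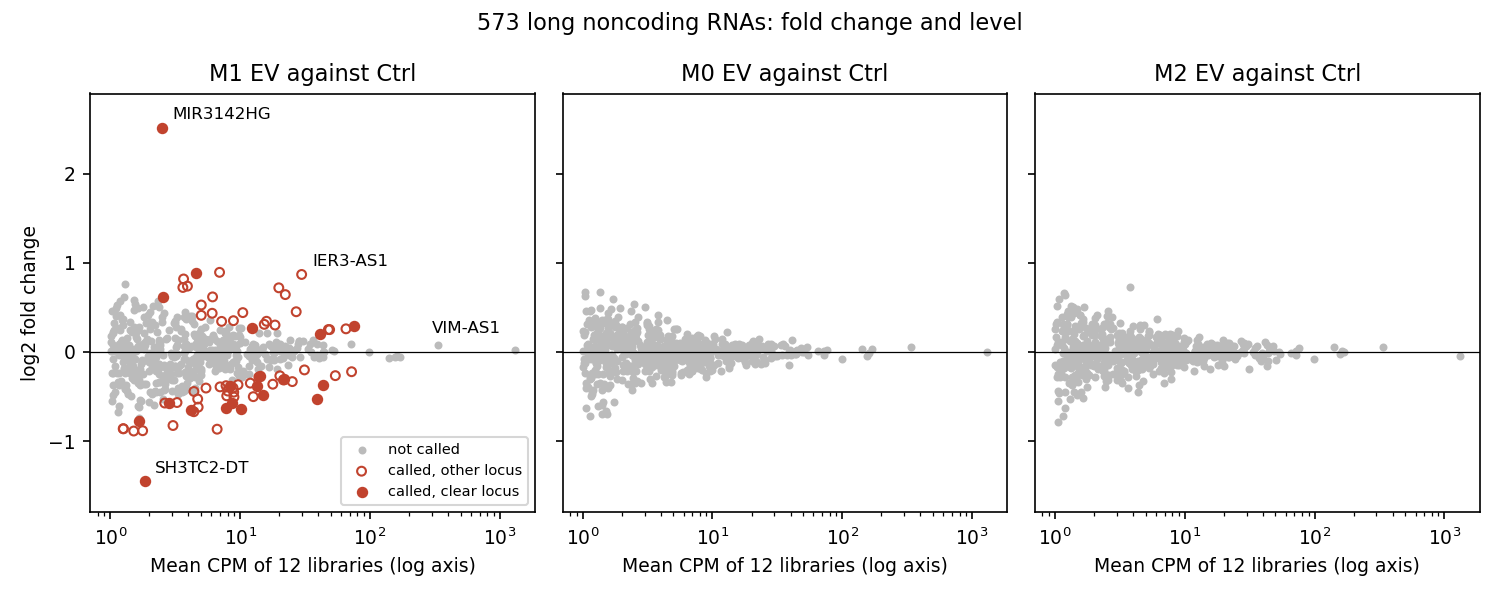
Log2 fold change (y axis) against mean level in CPM (x axis, log scale) of the 573 long noncoding RNAs in M1 EV, M0 EV and M2 EV, each against Ctrl; red marks called genes, filled at clear loci. Called genes appear in the M1 EV panel alone, where MIR3142HG lies at 2.52 and SH3TC2-DT at -1.45.

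Of the 19 microRNA hosts, 2 (10.5%) were higher in M1 EV than in Ctrl and 2 (10.5%) lower. Over all tested genes the shares were 14.7% and 13.5%. MIR497HG, the host of miR-195 and miR-497, had 11.4, 9.79 and 8.93 CPM in M1 EV against 7.49, 7.31 and 8.60 CPM in Ctrl. Its groups did not overlap (log2 fold change 0.35 ± 0.12 SE, edgeR adjusted p = 0.0196), but 42.7% of its exonic length lies under exons on the other strand. MIR4435-2HG, the host with the highest level, had 48.9, 50.5 and 43.1 CPM in M1 EV, 56.1, 54.7 and 56.7 CPM in M0 EV, 57.6, 55.2 and 55.7 CPM in M2 EV and 57.4, 57.6 and 56.4 CPM in Ctrl. The M1 EV libraries were below all others (-0.27 ± 0.05 SE against Ctrl, edgeR adjusted p = 0.000202). MIR1915HG, at a clear locus, had 6.09, 6.95 and 6.58 CPM in M1 EV against 9.89, 8.64 and 10.6 CPM in Ctrl (-0.57 ± 0.12 SE, edgeR adjusted p = 0.000268). These 2 groups did not overlap either.

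Hosts of other well-known microRNAs did not pass the test in M1 EV against Ctrl. MIR155HG, which carries miR-155, the other microRNA best known from inflammation, had 1.55, 2.10 and 1.08 CPM in M1 EV against 1.40, 1.34 and 2.31 CPM in Ctrl. The groups overlapped, and the log2 fold change was -0.10 ± 0.27 (SE). MIR22HG, the host of miR-22, had 23.4, 24.6 and 24.0 CPM in M1 EV against 26.3, 23.1 and 20.7 CPM in Ctrl. MIR100HG, which carries miR-100, let-7a-2 and miR-125b-1, had 20.4, 19.4 and 20.1 CPM in M1 EV against 21.7, 21.8 and 19.5 CPM in Ctrl. In both the groups overlapped, with log2 fold changes of 0.05 ± 0.08 and -0.07 ± 0.08 (SE).

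Among the 22 SNHG genes 3 (13.6%) were higher and 1 (4.55%) lower in M1 EV than in Ctrl. The shares over all tested genes were 14.7% and 13.5%. SNHG17, at a clear locus on chromosome 20, had 90.2, 84.5 and 85.4 CPM in M1 EV, 75.7, 74.6 and 65.9 CPM in M0 EV, 74.8, 70.0 and 76.0 CPM in M2 EV and 74.4, 67.4 and 71.0 CPM in Ctrl. Every M1 EV library lay above the other 9 (log2 fold change 0.29 ± 0.05 SE against Ctrl, edgeR adjusted p = 3.02e-05). SNHG16 had 75.6, 75.8 and 72.6 CPM in M1 EV against 61.0, 60.5 and 65.2 CPM in Ctrl (0.26 ± 0.05 SE, edgeR adjusted p = 4.18e-05), with 67.1% of its length under exons on the other strand. SNHG28 averaged 6.27 ± 0.04 CPM in M1 EV and 4.70 ± 0.69 CPM in Ctrl (SD, n = 3 each), a log2 fold change of 0.41. SNHG19, at a clear locus, averaged 7.19 ± 0.94 CPM in M1 EV and 9.35 ± 0.58 CPM in Ctrl, a log2 fold change of -0.38 (edgeR adjusted p = 0.0155). The other 18 did not pass, among them SNHG29, the most abundant of the class, with 174, 161 and 156 CPM in M1 EV against 170, 170 and 171 CPM in Ctrl (-0.06 ± 0.04 SE). The abundant SNHG genes were measured closely, and the standard errors of the 10 over 10 CPM lay between 0.04 and 0.10.

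Of the 95 LINC genes 4 (4.21%) were higher and 12 (12.6%) lower in M1 EV than in Ctrl. Over all tested genes these shares were 14.7% and 13.5%. At clear loci lay 3 of the higher and 6 of the lower LINC genes. LINC00944, at a clear locus on chromosome 12 (126730701 to 126772262, GRCh38.p14), had 6.51, 7.04 and 5.89 CPM in M1 EV, 4.23, 3.77 and 3.88 CPM in M0 EV, 3.61, 4.16 and 5.10 CPM in M2 EV and 4.09, 3.40 and 3.10 CPM in Ctrl. The M1 EV libraries lay above the other 9, and the log2 fold change against Ctrl was 0.88 ± 0.16 (SE; edgeR adjusted p = 2.38e-05). LINC01138 averaged 7.74 ± 1.05 CPM in M1 EV and 5.02 ± 1.29 CPM in Ctrl (SD, n = 3 each; log2 fold change 0.62), and its exons partly overlap other genes.

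Among the LINC genes that fell, LINC00707 had the largest change. The exons of LINC00707 share 28.0% of their length with another gene on the same strand, and it had 4.13, 3.75 and 4.12 CPM in M1 EV, 7.80, 7.74 and 8.12 CPM in M0 EV, 7.62, 7.08 and 7.61 CPM in M2 EV and 6.59, 7.72 and 7.54 CPM in Ctrl. Its M1 EV libraries were well below the other 9 (-0.87 ± 0.14 SE against Ctrl, edgeR adjusted p = 4.31e-06). LINC01085, at a clear locus on chromosome 4, had 6.92, 6.22 and 7.76 CPM in M1 EV, 11.6, 11.4 and 13.7 CPM in M0 EV, 10.7, 9.92 and 11.6 CPM in M2 EV and 11.3, 10.7 and 10.6 CPM in Ctrl. Again the 3 M1 EV libraries stood below all others (-0.64 ± 0.12 SE against Ctrl, edgeR adjusted p = 4.81e-05). LINC00857, also clear, averaged 6.01 ± 0.68 CPM in M1 EV and 9.34 ± 0.21 CPM in Ctrl (SD, n = 3 each; log2 fold change -0.63). LINC00205, the most abundant LINC gene, averaged 36.5 ± 4.5 CPM in M1 EV and 47.5 ± 1.8 CPM in Ctrl (log2 fold change -0.37, edgeR adjusted p = 4.06e-05). LINC00920 had 1.45, 0.915 and 0.982 CPM in M1 EV against 2.20, 1.85 and 1.68 CPM in Ctrl, and its call (edgeR adjusted p = 0.0384) was lost under 6 of 13 other settings. Of the most abundant LINC genes after LINC00205, neither LINC02693 (log2 fold change 0.08 ± 0.06 SE) nor LINC01234 (0.12 ± 0.07 SE) passed the test.

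Divergent transcripts share a start region with a coding gene, and the start sites were close together in this set. RefSeq places both starts for 55 of the 72 pairs, all 55 on opposite strands, at a median distance of 150 bases (quartiles 85 and 258.5). The 57 windows of divergent transcripts held a median of 33 CG pairs in 300 bases and 70% G and C. The medians were 21 CG pairs and 62.7% over the 445 windows of all long noncoding RNAs described here. Over all 27305 windows, which were not chosen by level, they were 14 CG pairs and 58.3%. The window of GAS6-DT (chr13:113863927-113864226, plus strand, GRCh38.p14) is shown because both starts lie in it and both genes changed. The capitals run from the start of GAS6, on the minus strand, to the start of GAS6-DT, 101 bases further on, and hold 20 CG pairs.
GAS6-DT: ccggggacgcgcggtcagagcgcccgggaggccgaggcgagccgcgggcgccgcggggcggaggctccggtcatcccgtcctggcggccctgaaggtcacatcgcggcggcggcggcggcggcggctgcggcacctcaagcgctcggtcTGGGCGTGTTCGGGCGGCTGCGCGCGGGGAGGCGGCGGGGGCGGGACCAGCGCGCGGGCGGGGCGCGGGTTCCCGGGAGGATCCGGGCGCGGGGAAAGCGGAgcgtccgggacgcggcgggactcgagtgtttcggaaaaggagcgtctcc
GAS6, the ligand of the receptor tyrosine kinases AXL, TYRO3 and MERTK, had 319, 305 and 298 CPM in M1 EV against 379, 368 and 381 CPM in Ctrl (log2 fold change -0.29 ± 0.03 SE, edgeR adjusted p = 1.01e-08). GAS6-DT had 10.9, 10.7 and 12.3 CPM in M1 EV against 15.3, 14.9 and 13.9 CPM in Ctrl (-0.38 ± 0.09 SE, edgeR adjusted p = 0.00165). In neither gene did the groups overlap, and GAS6-AS1, from the same gene, was lower too (-0.33 ± 0.09 SE).

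Of the 72 divergent transcripts 3 (4.17%) were higher and 4 (5.56%) lower in M1 EV than in Ctrl. Over all tested genes the shares were 14.7% and 13.5%. Of the 7 called divergent transcripts 5 were at clear loci. SH3TC2-DT, which starts 255 bases from SH3TC2, had the deepest fall of the 573. It had 0.62, 0.823 and 0.687 CPM in M1 EV, 1.95, 2.88 and 2.03 CPM in M0 EV, 3.03, 2.43 and 1.75 CPM in M2 EV and 2.20, 2.37 and 1.42 CPM in Ctrl. The M1 EV libraries were the lowest 3 of the 12, on 22 counts in all against 61 in Ctrl (-1.45 ± 0.32 SE, edgeR adjusted p = 0.000573). SH3TC2, an endosomal adaptor known from myelinating cells, had 37.2, 39.2 and 36.2 CPM in M1 EV, 61.0, 65.9 and 68.3 CPM in M0 EV, 63.4, 65.0 and 68.7 CPM in M2 EV and 66.9, 67.9 and 69.4 CPM in Ctrl. It fell as well (-0.86 ± 0.06 SE, edgeR adjusted p = 1.45e-15), and its M1 EV libraries were far below the rest.

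BAIAP2-DT, 432 bases from the start of BAIAP2, an adaptor of actin remodelling, had 29.3, 32.1 and 30.1 CPM in M1 EV, 40.0, 38.1 and 41.2 CPM in M0 EV, 42.1, 40.4 and 41.0 CPM in M2 EV and 45.1, 42.9 and 44.4 CPM in Ctrl. The M1 EV libraries were the lowest and the Ctrl libraries the highest of the 12 (-0.53 ± 0.06 SE for M1 EV against Ctrl, edgeR adjusted p = 2.55e-09). BAIAP2 changed less, with a log2 fold change of -0.19 ± 0.05 (SE, edgeR adjusted p = 0.00461). MAN1B1-DT had 3.51, 2.74 and 3.44 CPM in M1 EV against 4.29, 5.45 and 5.41 CPM in Ctrl (-0.65 ± 0.16 SE, edgeR adjusted p = 0.00231). MAN1B1, a mannosidase of the endoplasmic reticulum, did not pass (-0.02 ± 0.05 SE). Altogether 5 of the 7 called divergent transcripts had a partner called in the same direction and the other two a partner that was not called, while 32.9% of the 70 tested partners were called.

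In M1 EV against Ctrl 14.7% of all tested genes were higher and 13.5% lower. Among the 365 antisense genes 15 (4.11%) were higher and 26 (7.12%) lower. The tested partners of 38 of these 41 divide into 22 called in the same direction, 1 called in the opposite direction and 15 not called, and 34.6% of all 338 tested partners were called. All 22 pairs of the same direction were at overlapping loci, where 37 of the 38 lay. The 1 at a clear locus had a partner that was not called. With strand use unknown, the values of both genes stand side by side for most of the rises and falls named below. IER3-AS1, antisense to the immediate early gene IER3, had 47.9, 44.7 and 40.3 CPM in M1 EV, 25.7, 26.5 and 24.2 CPM in M0 EV, 25.98, 25.9 and 24.4 CPM in M2 EV and 22.9, 23.9 and 25.7 CPM in Ctrl. All M1 EV libraries lay above the other 9 (0.87 ± 0.07 SE against Ctrl, edgeR adjusted p = 2.15e-13). IER3 itself had 118, 117 and 108 CPM in M1 EV against 62.2, 62.2 and 64.7 CPM in Ctrl (0.86 ± 0.05 SE), and 68.1% of the antisense gene lies under its exons.

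PAPPA-AS1 lies wholly under exons of PAPPA, a protease that frees insulin-like growth factors from their binding proteins. It had 10.2, 10.1 and 12.7 CPM in M1 EV against 6.59, 5.76 and 5.41 CPM in Ctrl (0.89 ± 0.12 SE, edgeR adjusted p = 1.96e-07). PAPPA had a log2 fold change of 0.87 ± 0.07 (SE), and its reads over the shared stretch alone would give 6.36 CPM over the 12 libraries, where PAPPA-AS1 averaged 6.94 CPM. CEBPB-AS1, beside the inflammatory transcription factor CEBPB, had 29.1, 29.5 and 24.7 CPM in M1 EV against 18.9, 15.5 and 16.2 CPM in Ctrl (0.72 ± 0.08 SE, edgeR adjusted p = 2.93e-09). CEBPB had 88.2, 85.5 and 73.6 CPM in M1 EV against 52.1, 48.3 and 47.6 CPM in Ctrl (0.74 ± 0.06 SE), and 8.72% of CEBPB-AS1 lies under its exons.

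Further rises in this class were smaller or less precise. KRT7-AS, antisense to a simple-epithelium keratin, had a log2 fold change of 0.82 ± 0.17 (SE) beside 0.45 for KRT7. SLCO4A1-AS1 had 0.74 beside 0.61 for SLCO4A1, an organic anion transporter, and its call was lost without M1 EV replicate 2 (0.50, edgeR adjusted p = 0.0676). ATP6V1B1-AS1 had 0.72 ± 0.17 (SE), and its partner ATP6V1B1, a proton pump subunit, had too few counts to be tested. NUP153-AS1 rose by 0.64 ± 0.08 (SE), and NUP153, a nuclear pore protein, by 0.23 ± 0.04 (SE). NAV2-AS2 had 0.53 beside 0.46 for NAV2, and was not called by DESeq2 or without M1 EV replicate 2. Exons on the other strand cover 16.7% of KRT7-AS, 24.4% of SLCO4A1-AS1, 51.3% of NUP153-AS1 and 65.7% of NAV2-AS2.

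Of the 38 called antisense genes with a tested partner, 15 had a partner that did not pass the test. VPS9D1-AS1 was among these, and only ARRDC1-AS1 moved against a called partner. VPS9D1-AS1 had 33.9, 32.3 and 31.7 CPM in M1 EV, 23.9, 27.1 and 25.6 CPM in M0 EV, 29.7, 24.3 and 24.7 CPM in M2 EV and 25.7, 23.3 and 22.7 CPM in Ctrl. The M1 EV libraries were the highest of the 12 (0.45 ± 0.07 SE against Ctrl, edgeR adjusted p = 7.79e-06), while VPS9D1 had 13.9, 15.6 and 14.4 CPM in M1 EV against 17.0, 15.7 and 13.0 CPM in Ctrl (-0.05 ± 0.10 SE). ARRDC1-AS1, picked out after its values were seen, had 19.002, 18.6 and 17.9 CPM in M1 EV against 14.5, 15.03 and 14.2 CPM in Ctrl (0.34 ± 0.08 SE, edgeR adjusted p = 0.0011). ARRDC1, an arrestin-related adaptor, went down to 11.1, 9.33 and 10.1 CPM in M1 EV, against 14.2, 11.3 and 14.5 CPM in Ctrl (-0.40 ± 0.10 SE, edgeR adjusted p = 0.00257). Only 2.06% of ARRDC1-AS1 lies under exons on the other strand.

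Falls among antisense genes were largest at low levels, ZFHX4-AS1 (-0.89 on the log2 scale) having groups that overlap. MAP3K14-AS1, antisense to the kinase gene of non-canonical NF-kB signalling, had 1.03, 1.28 and 1.28 CPM in M1 EV against 3.00, 1.96 and 1.77 CPM in Ctrl (-0.88 ± 0.27 SE, edgeR adjusted p = 0.0113). The call was lost without Ctrl replicate 1 (-0.63, edgeR adjusted p = 0.164) and with DESeq2, whereas MAP3K14 itself went to 33.0, 38.9 and 38.6 CPM in M1 EV, against 77.0, 70.1 and 70.9 CPM in Ctrl (-0.98 ± 0.06 SE). LRP1-AS had 1.14, 2.56 and 1.28 CPM in M1 EV, 3.33, 4.96 and 4.68 CPM in M0 EV, 2.83, 3.47 and 3.27 CPM in M2 EV and 3.10, 2.78 and 3.10 CPM in Ctrl. The M1 EV libraries were the lowest 3 of the 12, with replicate 2 close to Ctrl (-0.82 ± 0.25 SE). That call was lost without M1 EV replicate 1 (-0.63, edgeR adjusted p = 0.0743) or replicate 3. LRP1, a lipoprotein receptor, fell by 0.51 on the log2 scale, and 17.4% of LRP1-AS lies under exons on the other strand.

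NR2F2-AS1 and RASSF1-AS1 had log2 fold changes of -0.86 each, and both calls (edgeR adjusted p = 0.047 each) were lost under 9 and 7 of 13 other settings. Exons on the other strand cover 83.4% of RASSF1-AS1 and 29.7% of ZSCAN16-AS1. Fold changes of the partners NR2F2, RASSF1 and ZSCAN16 are not given here. ZSCAN16-AS1 had 3.30, 3.66 and 2.85 CPM in M1 EV against 6.09, 3.81 and 5.68 CPM in Ctrl (-0.67 ± 0.17 SE, edgeR adjusted p = 0.00255). PPP3CB-AS1 had 3.92, 3.57 and 3.73 CPM in M1 EV against 5.99, 5.15 and 6.03 CPM in Ctrl (-0.62 ± 0.15 SE), while PPP3CB, a calcineurin subunit, had -0.02 ± 0.05 (SE). In none of these did the groups overlap, as the rule by which they were named required. Of the 2 called antisense genes at clear loci, both chosen for mention after their values were seen, KCNJ5-AS1 averaged 11.6 ± 0.6 CPM in M1 EV and 16.3 ± 3.1 CPM in Ctrl, and WAC-AS1 19.3 ± 0.8 CPM in M1 EV and 23.8 ± 0.9 CPM in Ctrl (SD, n = 3 each). Their log2 fold changes were -0.48 and -0.30 (edgeR adjusted p = 0.000331 and 0.00209). The most abundant antisense genes did not pass: VIM-AS1 had a log2 fold change of 0.03 ± 0.04 (SE), MIF-AS1 of 0.08 ± 0.04 (SE) and RUSC1-AS1 of -0.04 ± 0.04 (SE).

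**Figure D4:**
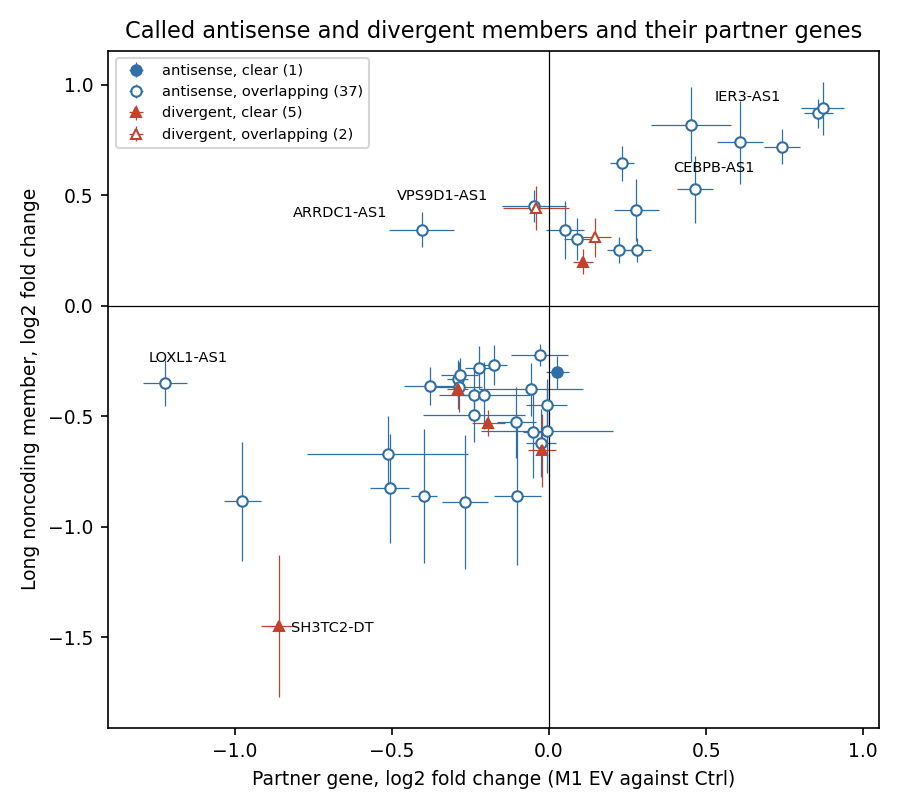
Log2 fold change in M1 EV against Ctrl of the 45 called antisense and divergent genes with a tested partner (y axis) and of that partner (x axis), with SE bars; filled marks are clear loci. SH3TC2-DT and IER3-AS1 lie with their partners in the lower left and upper right, ARRDC1-AS1 lies at 0.34 with its partner at -0.40, and LOXL1-AS1 lies at -0.35 with LOXL1, a lysyl oxidase, at -1.22.

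With vesicles of the other macrophage states no long noncoding RNA passed the test against Ctrl. In M0 EV against Ctrl no gene of the 573 was called by edgeR or by DESeq2, beside 0.0152% of all tested genes, and 18 (3.14%) had an unadjusted edgeR p below 0.05, against 5.00% of all tested genes. The count was also 0 with M0 EV replicates 2 and 3 summed into 1 sample. The smallest p belonged to BAIAP2-DT (log2 fold change -0.15 ± 0.05 SE, edgeR adjusted p = 0.691; -0.15 ± 0.06 and 1.00 with the replicates summed) and LRP1-AS (0.51 ± 0.19 SE, edgeR adjusted p = 0.764; 0.51 ± 0.19 and 1.00 with the replicates summed). The 3 M0 EV libraries of each stood apart from Ctrl, lower for BAIAP2-DT and higher for LRP1-AS. Both genes were picked for their small p, so this separation is no further evidence of a difference.

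In M2 EV against Ctrl the count was 0 by both tools too, beside 0.0457% of all tested genes, and 19 genes (3.32%) had an unadjusted edgeR p below 0.05, against 6.21% of all tested genes. LINC01436, at a clear locus on chromosome 21, had 4.49, 5.34 and 4.19 CPM in M2 EV against 2.70, 2.78 and 3.02 CPM in Ctrl, with 3.92, 3.93 and 3.73 CPM in M1 EV and 3.82, 4.17 and 3.44 CPM in M0 EV. All vesicle libraries lay above all Ctrl libraries, but the gene was picked for its small p in M2 EV against Ctrl. The log2 fold change in M2 EV was 0.73 ± 0.16 (SE) with an edgeR adjusted p of 0.112, and it was called with no filter on low counts (edgeR adjusted p = 0.0433) and with the M2 EV and Ctrl libraries alone (edgeR adjusted p = 0.0234). MYL12-AS1 followed with -0.20 ± 0.07 (SE, edgeR adjusted p = 0.468). Between M2 EV and M0 EV no gene was called by edgeR or DESeq2, in this set or among all tested genes (0%), also with the M0 EV replicates summed. There 15 of the 573 (2.62%) had an unadjusted edgeR p below 0.05, against 3.34% of all tested genes. The smallest p were those of SERTAD4-AS1 (0.52 ± 0.17 SE) and LINC01117 (-0.76 ± 0.28 SE), each with an edgeR adjusted p of 1.00 and with the same log2 fold changes and SE when the pair was summed.

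Set against the other vesicles, M1 EV again differed. Against M0 EV, 30 of the 573 were higher and 28 lower, beside 25.2% of all tested genes called (13.2% higher and 12% lower); with M0 EV replicates 2 and 3 summed the counts were 30 and 27, and DESeq2 called 16 and 17. Against M2 EV, 33 were higher and 39 lower, beside 24.7% of all tested genes (12.9% higher and 11.7% lower), and DESeq2 called 16 and 18. Shares over all genes are not given here for DESeq2 or for the summed pair. In M1 EV against Ctrl DESeq2 called 19.9% of all genes with an adjusted p, where edgeR called 28.1% of those tested. The count of lower genes against M2 EV was 25 without M1 EV replicate 1. These comparisons share the M1 EV libraries with that against Ctrl. The genes named next passed here and did not pass against Ctrl. LINC01881 had 1.03, 0.915 and 1.08 CPM in M1 EV, 1.46, 2.38 and 2.03 CPM in M0 EV, 1.76, 2.36 and 2.36 CPM in M2 EV and 1.70, 1.44 and 1.51 CPM in Ctrl. Its M1 EV libraries were the lowest 3 (-1.12 ± 0.25 SE against M2 EV, edgeR adjusted p = 0.000977; -0.62 against Ctrl, edgeR adjusted p = 0.151). RGMB-AS1 had 8.37, 7.87 and 9.13 CPM in M1 EV and 5.37, 5.34 and 6.01 CPM in M2 EV, with 7.99, 6.07 and 7.18 CPM in Ctrl. The Ctrl libraries overlapped M1 EV, and M2 EV lay below M1 EV (0.60 ± 0.12 SE against M2 EV, edgeR adjusted p = 0.000253). STARD4-AS1 was higher than in M2 EV by 0.62 ± 0.16 (SE, edgeR adjusted p = 0.00254), while LAMA5-AS1 and CRIM1-DT were lower than in M0 EV, by log2 fold changes of -1.05 ± 0.28 and -0.56 ± 0.16 (SE; -1.06 ± 0.29 and -0.57 ± 0.17 with the pair summed).

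Well-known long noncoding RNAs were also read from 2 lists, which hold genes inside and outside the symbol rule. Over all tested genes 14.7% were higher and 13.5% lower in M1 EV against Ctrl. Of 23 noncoding genes linked to inflammation 12 could be tested, with a median log2 fold change of -0.05 against 0.00 over all tested genes. In M1 EV against Ctrl 2 of the 12 were higher and 1 lower. The higher ones were MIR3142HG and THRIL, a noncoding gene known for regulating TNF, with 24.9, 26.2 and 24.8 CPM in M1 EV against 22.8, 19.96 and 19.7 CPM in Ctrl (0.29 ± 0.08 SE, edgeR adjusted p = 0.00436). The lower one was MIR4435-2HG. NKILA, a noncoding inhibitor of NF-kB signalling, had too few counts to be tested, 17 in M1 EV, 4 in M0 EV, 6 in M2 EV and 4 in Ctrl. A second list of 30 well-known long noncoding genes, MALAT1, NEAT1, CYTOR, LUCAT1 and WAKMAR2 being in both lists, had 19 that could be tested. Beside the same shares over all tested genes, none of the 19 was higher and 2 were lower. These were TUG1, with 159, 169 and 172 CPM in M1 EV against 190, 198 and 178 CPM in Ctrl (-0.18 ± 0.04 SE, edgeR adjusted p = 0.000863), and NORAD, a decoy of Pumilio proteins, with 379, 403 and 425 CPM in M1 EV against 451, 466 and 428 CPM in Ctrl (-0.16 ± 0.04 SE, edgeR adjusted p = 0.0013). MALAT1 and NEAT1, the abundant nuclear RNAs, had -0.04 ± 0.11 and -0.05 ± 0.09 (SE).

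Marker genes describe the cells and what the vesicles could bring. The melanocytic genes MITF, MLANA, PMEL, TYR, DCT, SOX10, S100B and TYRP1 summed to 1.65 to 2.65 CPM in M1 EV, 1.87 to 2.91 CPM in M0 EV, 1.56 to 2.36 CPM in M2 EV and 1.75 to 1.86 CPM in Ctrl, with TYR and S100B at 0 in all libraries. The pigment markers of melanoma were at or near 0 in MV3 cells. Of 16 macrophage markers, 15 of them in the table, CD68, which many cell types express, was the only one with enough counts to be tested, with 66.6, 67.9 and 66.4 CPM in M1 EV against 54.0, 61.0 and 55.1 CPM in Ctrl (0.24 ± 0.05 SE, edgeR adjusted p = 0.000222). The other 14 in the table summed to 0.915 to 1.45 CPM in M1 EV, 0.793 to 1.14 CPM in M0 EV, 0.555 to 1.27 CPM in M2 EV and 0.976 to 1.13 CPM in Ctrl, with TYROBP, CD163, S100A8 and S100A9 at 0. Whether RNA carried by the vesicles adds to the rise of MIR3142HG was not tested. In bulk libraries a change in every cell and a change in the share of cells with a given RNA cannot be told apart.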

How the data were processed

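Poly(A) RNA of 12 samples was sequenced from directional libraries, per the labels' protocols. Per the submitters' processing notes, STAR 2.6.1b, HOMER 4.10 and hg38 were used. The deposited values are estimated counts per transcript, in steps of 0.5, and 51.3% of the nonzero ones were not whole. Counts were rounded after the transcript with the highest sum was taken for each of 28101 genes. The 333 transcripts without a name (0.0584% to 0.0623% of counts) were left out. No column belongs to a sample outside this series.

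The 13132 genes passing edgeR's low-count filter (99.9% of the counts) were fitted with edgeR 4.0.16 (R 4.3.3), TMM scaling and the quasi-likelihood F-test over 4 groups, without a replicate block, with Benjamini-Hochberg adjustment in each of 6 comparisons. A gene is called at an adjusted p below 0.05. CPM values are scaled by TMM, and SE is the log2 fold change divided by the root of F. DESeq2 1.42.0 was an alternative, beside other size factors, filters, transcript sums, a replicate block, the 2 groups alone and each library left out. Summing M0 EV replicates 2 and 3 was added after seeing the data. The fit was tested on simulated data. Overlaps came from RefSeq and GENCODE release 29 names, with 15 of the 573 genes not matched.

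The genes and lists were chosen with earlier results of these data known. Genes are named by rule: in M1 EV against Ctrl the 12 largest rises and 12 largest falls among called genes with groups that do not overlap, with their partners, the 2 smallest p where a comparison has no call, the 3 most abundant of each class, and for M1 EV against M0 EV or M2 EV the 3 smallest adjusted p not called against Ctrl. No values are given for the partners NR2F2, RASSF1 and ZSCAN16. Other genes named were chosen after their values were seen, apart from those of the lists. Low counts limit precision, and p-values and counts cover counting and library spread only. Some results are not reported here.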

Additional observations from a re-analysis of the deposited data

How the results depend on the processing

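The counts called in M1 EV against Ctrl (27 higher, 45 lower) were 27 and 45 with DESeq2's size factors in edgeR, but DESeq2's own test called 24 lower. Against M0 EV DESeq2 called 16 higher and 17 lower, and against M2 EV 16 higher and 18 lower. In M2 EV against Ctrl 1 gene, LINC01436, was called higher with no low-count filter and with only the 2 groups compared. With each library left out in turn, M1 EV against Ctrl gave 22 to 26 higher and 31 to 43 lower, M1 EV against M0 EV 20 to 25 and 22 to 37, and M1 EV against M2 EV 26 to 30 and 25 to 35, while the other comparisons stayed at 0. The cause was not tested. No shares over all genes stand beside the counts of this section, so their changes cannot be read as particular to the long noncoding RNAs. Replicate numbers showed no clear pairing of the samples. Correlations ran from -0.053 to 0.0955 for same-numbered libraries and from -0.067 to 0.062 for the others. The highest were both same-numbered, M0 EV with M1 EV replicate 1 (0.0955) and M1 EV with M2 EV replicate 3 (0.0764). With the replicate block the calls were 29 higher and 45 lower against Ctrl, 32 and 28 against M0 EV, and 32 and 41 against M2 EV. Of 31 named genes called in M1 EV against Ctrl, 23 stayed called under all 13 alternatives. Among genes not called, the sign turned as libraries were left out: LINC01117 ranged from -0.078 (without Ctrl replicate 3) to 0.127, and was -0.031 without Ctrl replicate 2 and -0.038 without M1 EV replicate 3; MIR22HG ranged from -0.041 (without Ctrl replicate 3) to 0.137; and VIM-AS1 ranged from -0.030 (without M1 EV replicate 2) to 0.078, with -0.00069 without Ctrl replicate 2.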
